A study of Mus musculus with 10 samples.

Results

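The epithelial junction genes described here are Cldn2, Cldn3, Cldn4, Cldn7, Cldn15, Cldn23, Tjp1, Ocln, Cdh1 and Epcam, and their rows were taken by name from the count tables. The set was chosen with earlier results of these data known. All 10 were found among the 35006 gene names with counts, and all 10 passed the filter on low counts that left 13708 genes for testing. Their counts were compared over 5 live, EpCAM+ cell populations sorted from small intestinal crypts of EF1a-OSCAR mice on the C57BL6/J strain, with 10000 cells per library and 2 biological replicates per population, 10 libraries in all. Ages of the mice, and whether animals were pooled, are not given in the sources used here.

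Every population carried the same reporter, a knock-in at Rosa26 in which the EF1a promoter drives the red protein mCherry together with VeN90, a form of the fluorescent protein Venus that dims when the kinase CDK9 phosphorylates it. A stop cassette before the reporter had been deleted in the germline with Vasa-Cre, so all tissues carry the active allele. CDK9 acts on RNA polymerase II during elongation, and the ratio of VeN90 to mCherry (the OSCAR signal) is high where CDK9 activity is low. P1 was sorted as OSCARlow EF1alow, P2 as OSCARhigh EF1alow, P3 as OSCARlow EF1ahigh, P4 as OSCARmed EF1alow and P5 as OSCARmed EF1ahigh, where EF1a stands for the overall brightness of the reporter. The gates set 5 combinations of OSCAR signal and brightness, and no treatment or time differed between them. None of the 10 genes was used for the gates among P1 to P5, but the antibody against EpCAM, the product of Epcam, selected the cells of all of them.

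Neighbouring epithelial cells are held together by junctions arranged from the apical side downwards. Tight junctions seal the gap between cells, and claudins are their membrane-spanning strands. Some claudins form pores for ions and water, as Cldn2 and Cldn15 do for cations, while others such as Cldn3 and Cldn4 are counted among the barrier-forming ones. Occludin (Ocln) is another membrane protein of the tight junction, and Tjp1 encodes ZO-1, the cytoplasmic scaffold that ties the strands to actin. Cdh1 encodes E-cadherin, the adhesion receptor of adherens junctions, and EpCAM is a membrane glycoprotein of epithelial cells that binds and stabilises claudin 7. In the intestine, Cldn2 is typical of the crypt, and claudin make-up is known to change between crypt and villus.

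The libraries are named by their deposited labels. The libraries labelled P2 held the markers of secretory cells that the study places in P3, whereas the study describes P2 as dormant. Summed markers of dividing cells were lowest in the libraries labelled P2, at 69.9 and 56.3 CPM, against 792 and 1220 CPM in those labelled P3. Whether these labels are exchanged was not tested, and no library was renamed. OSCAR and brightness terms in the comparisons below follow the labels and hold only if the labels do. Counts on genes ranged from 3857612 to 6485823 per library. The smallest detectable level, 3 counts, thus lay between 0.463 and 0.778 CPM (counts on a gene relative to its library's total) before TMM scaling. It covers counting error only. The lowest count of any of the 10 genes was 35 (Cldn4), so none was limited by depth alone. Counts of mitochondrial genes made up 59.2% of P3 replicate 1 and 36.1% of P3 replicate 2, and no more than 5.19% of any other library. Over all genes tested, replicates differed by a median of 0.23 to 0.35 on the log2 scale in P1, P2, P4 and P5 and by 0.60 in P3. The labelled tissue matched its markers, since Epcam, Cdh1 and Vil1 were counted in every library, and marker genes of mesenchyme and endothelium summed to at most 5.12 CPM. Summed Paneth markers reached 573929 and 411406 CPM in the libraries labelled P2 against 510 to 64555 CPM elsewhere. Summed enterocyte markers reached 45939 and 38571 CPM in P1 against 1970 to 23663 CPM elsewhere. The genes of the enterocyte list did not all follow this order. Mean Fabp2 was 17220 CPM in P1 and at most 1984 CPM elsewhere. Mean Sis was 1229 CPM in P1, 4115 in P3, 2145 in P4 and 2794 in P5. Mean Alpi was 313 CPM in P1, 433 in P3 and 374 in P5. All 7 lymphocyte markers were detected in both P1 libraries, with sums of 987 and 288 CPM, against 0.612 to 159 CPM in the other 8 libraries. All 7 were also detected in P3 replicate 1, the library with the sum of 159 CPM.

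Levels below and the marker sums above are CPM after TMM scaling. Each library's total was multiplied by its factor, from 0.49 (P3 replicate 1) to 1.56 (P4 replicate 2). A marker sum is therefore not a share of a library's counts. An adjusted p is that of edgeR's quasi-likelihood test (edgeR QL) with Benjamini-Hochberg adjustment over the 13708 genes, in a fit of 5 population means over the 10 libraries, and a gene was called at an adjusted p under 0.01. These p-values measure the spread between the sequenced replicates. In sorted bulk samples, fewer cells of a type and less RNA per cell cannot be told apart.

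The 10 genes fell into 3 patterns. Cldn4 was highest in the libraries labelled P2. Cldn2, Cldn3, Cldn15, Cldn23, Ocln, Cdh1 and Epcam were lowest in P1. Cldn7 was lowest in P2, and Tjp1, like Cldn15 and Cldn23, was called in no comparison. Over the 5 populations, 3 of the 10 were called (Cldn4, Ocln and Cdh1), where 36.3% of all genes tested were called, and DESeq2's likelihood ratio test called 8 of the 10 and 47.4% of all genes. Cldn4 was the one member called in every fit that left out 1 library.

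**Figure D1:**
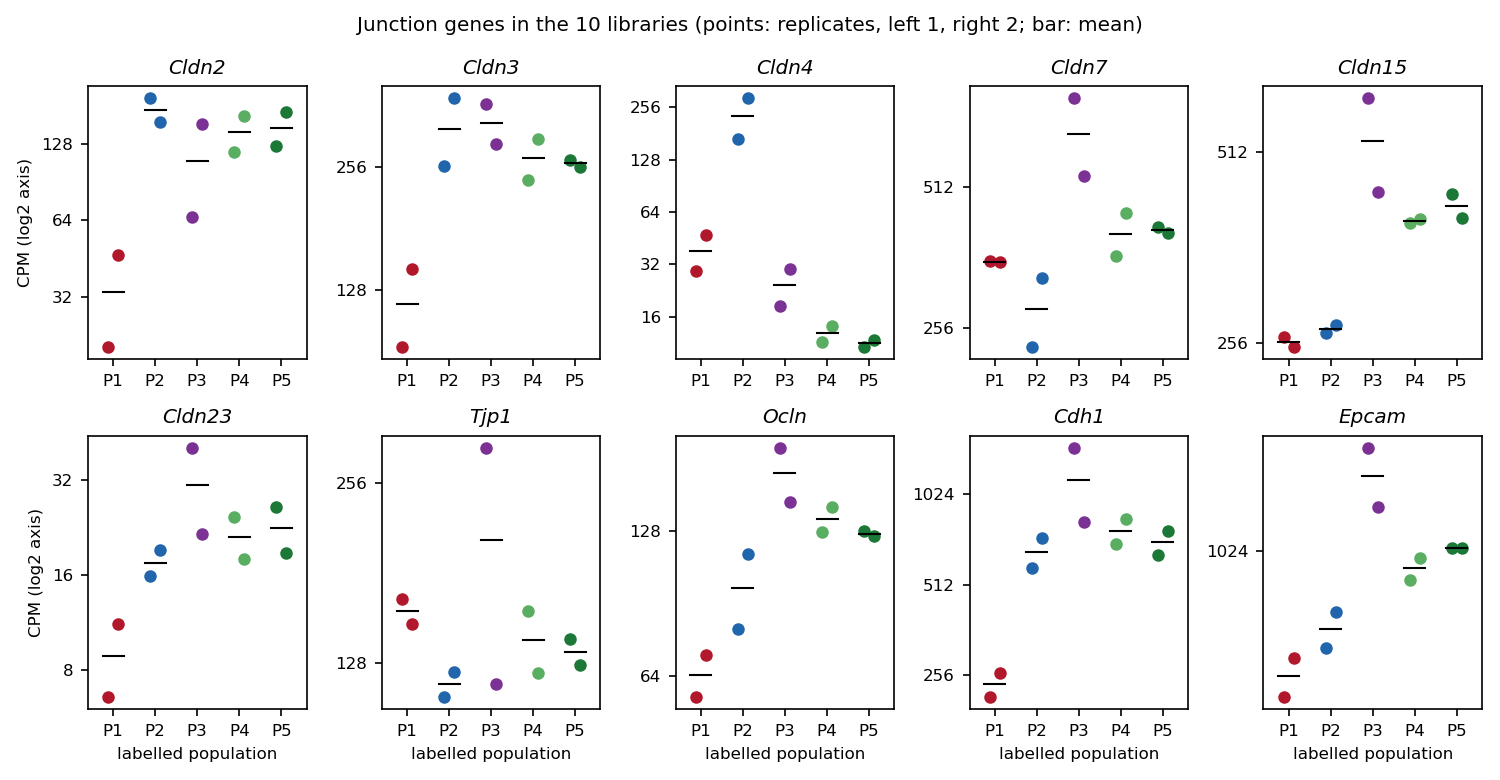
Level of each of the 10 genes in CPM (log2 axis, a separate range in each panel) in the 5 labelled populations, with replicate 1 at the left, replicate 2 at the right and the mean as a bar. Cldn4 stands at 168 and 287 CPM in P2 and at no more than 47.0 CPM elsewhere, while the P1 points lie below all others for Cldn2, Cldn3, Cldn15, Cldn23, Ocln, Cdh1 and Epcam.

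Cldn4 had the widest range of the 10 genes, 26.8-fold from its lowest to its highest library. Replicates 1 and 2 gave 29.4 and 47.0 CPM in P1, 168 and 287 CPM in P2, 18.5 and 29.9 CPM in P3, 11.5 and 14.1 CPM in P4, and 10.7 and 11.8 CPM in P5. Both P2 libraries stood above the other 8, as they did for 20.2% of all genes tested, and Cldn4 was the one member with that position. P1 came next without overlapping P3, P4 or P5 except for its lower library, which lay just under the higher P3 library. Cldn4 was 17.7-fold higher in P2 than in P4 (log2 difference 4.15 ± 0.37 SE, n = 2 and 2, edgeR QL adjusted p = 0.00035), 20.2-fold higher than in P5 (4.33 ± 0.37, edgeR QL adjusted p = 0.00021), 9.22-fold higher than in P3 (3.20 ± 0.36, edgeR QL adjusted p = 0.000342) and 5.97-fold higher than in P1 (2.58 ± 0.34, edgeR QL adjusted p = 0.000604). These differences kept their call in all 10 fits that each left out 1 library, and without each in turn the difference from P4 ranged from 3.68 to 4.45. Cldn4 was also 2.97-fold higher in P1 than in P4 (log2 difference 1.57 ± 0.34 SE, edgeR QL adjusted p = 0.00664), a call that held in 4 of the 10 fits with 1 library left out. Between P3 and P1 it differed by -0.63 ± 0.35 on the log2 scale, which was not called. The libraries with the highest Cldn4 were also those with the highest Paneth, goblet and enteroendocrine marker sums. The part of these cell types in the Cldn4 level was not tested.

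Cldn4 and Cldn3 lie next to each other on chromosome 5. In the NCBIM37 annotation, the build of the count tables, Cldn4 is a single-exon gene on the minus strand at chr5:135420996-135422804, and Cldn3 lies on the plus strand at chr5:135462084-135463342, 39279 bases away. Cldn15 lies farther along the same chromosome at chr5:137442486-137451728 on the plus strand, and Cldn2 at chrX:136335367-136345925, also on the plus strand. Cldn3 overlaps Wbscr25 by 40 bases, and reads were counted without strand, so a small part of its count is uncertain. The other 9 members overlap no annotated gene.

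The promoter windows of these 4 claudins are shown because Cldn4 and Cldn3 are neighbours with different patterns, and Cldn2 and Cldn15 are the pore-forming pair. Each window runs from 250 bases before to 50 bases after the transcription start and comes from RefSeq on GRCm38.p6, which held windows for 8 of the 10 genes. Motifs were searched on both strands, and their share is that over the 32851 windows of all genes. The E-box core CACCTG, the letters that Snail and Zeb factors bind, is present in 20.21% of windows. The TCF/LEF letters ATCAAAG are present in 3.729%. The CDX letters TTTATG, of the intestinal homeobox factors, are present in 11.85%. The HNF4 letters CAAAGTC are present in 4.441%. The TATA box, searched as TATAAA, is present in 13.62%, and its letters can overlap a CDX match. Capitals mark matches on either strand.
Cldn4, chr5:134946885-134947184, minus strand: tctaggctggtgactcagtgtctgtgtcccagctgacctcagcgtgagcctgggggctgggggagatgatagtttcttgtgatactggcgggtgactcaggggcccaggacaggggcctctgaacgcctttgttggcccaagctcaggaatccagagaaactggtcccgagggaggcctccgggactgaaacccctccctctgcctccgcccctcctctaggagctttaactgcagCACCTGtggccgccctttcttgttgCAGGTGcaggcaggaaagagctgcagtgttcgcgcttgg
Cldn3, chr5:134985964-134986263, plus strand: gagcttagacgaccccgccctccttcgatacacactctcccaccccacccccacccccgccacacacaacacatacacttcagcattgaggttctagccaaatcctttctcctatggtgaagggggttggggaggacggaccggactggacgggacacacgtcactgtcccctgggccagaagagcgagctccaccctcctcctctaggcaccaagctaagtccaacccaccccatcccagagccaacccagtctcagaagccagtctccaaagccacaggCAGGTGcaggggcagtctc
Cldn2, chrX:139800558-139800857, plus strand: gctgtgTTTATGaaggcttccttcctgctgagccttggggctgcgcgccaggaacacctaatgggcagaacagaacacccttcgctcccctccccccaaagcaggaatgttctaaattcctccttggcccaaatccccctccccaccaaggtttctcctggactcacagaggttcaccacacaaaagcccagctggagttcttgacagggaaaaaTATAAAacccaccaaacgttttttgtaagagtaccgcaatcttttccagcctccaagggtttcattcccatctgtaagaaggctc
Cldn15, chr5:136967619-136967918, plus strand: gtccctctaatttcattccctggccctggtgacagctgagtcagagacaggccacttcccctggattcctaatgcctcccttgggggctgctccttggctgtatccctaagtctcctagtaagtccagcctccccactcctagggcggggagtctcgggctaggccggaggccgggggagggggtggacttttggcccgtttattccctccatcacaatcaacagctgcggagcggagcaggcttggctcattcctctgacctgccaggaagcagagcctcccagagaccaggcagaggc

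The Cldn4 window holds 2 E-box matches, at 14 bases before and 12 bases after the start, and the Cldn3 window holds 1, at 32 bases after the start. The Cldn2 window holds a CDX match 244 bases before the start and a TATA match 35 bases before it. None of the 5 motifs was found in the Cldn15 window. These matches describe letters in a window, and binding was not measured.

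Cldn3 did not share the pattern of its neighbour. It measured 93.3 and 144 CPM in P1, 256 and 375 CPM in P2, 363 and 290 CPM in P3, 238 and 299 CPM in P4, and 266 and 256 CPM in P5. The P1 libraries were the lowest, and of the other 4 populations P3 and P5 alone did not overlap. Per exon length, the ratio of Cldn4 to Cldn3 within a library was 0.46 and 0.53 in P2, against 0.22 and 0.23 for P1, 0.04 and 0.07 for P3, and 0.03 for each library of P4 and P5. The change between P2 and P4 was thus unequal for these neighbours.

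The genes of P1 were the other group that stood apart. Both P1 libraries lay below the other 8 for 7 of the 10 members, and did so for 13.9% of all genes tested. Cdh1 measured 217 and 261 CPM in P1, 581 and 733 CPM in P2, 1451 and 825 CPM in P3, 696 and 848 CPM in P4, and 642 and 774 CPM in P5. No P1 value reached the lowest value of the rest. Cldn2, the pore claudin of the crypt, measured 20.3 and 46.5 CPM in P1, 193 and 156 CPM in P2, 65.6 and 153 CPM in P3, 119 and 165 CPM in P4, and 126 and 171 CPM in P5. The P1 replicates of Cldn2 differed from each other more than those of any other member, by 1.20 on the log2 scale, and the lower P3 library came nearest to them. Ocln measured 58.0 and 70.9 CPM in P1, 80.0 and 115 CPM in P2, 190 and 147 CPM in P3, 128 and 144 CPM in P4, and 128 and 125 CPM in P5. Its order ran from P1 through P2 to the other 3 populations, with both P3 libraries on top. Enterocyte marker sums were highest in these same P1 libraries, at 45939 and 38571 CPM, although mean Sis and Alpi were higher in P3 and P5. Lymphocyte marker sums, 987 and 288 CPM, were also highest there, despite a sort for EpCAM+ cells that should remove lymphocytes. The part of either cell type in the low levels was not tested.

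The comparison of P1 with P4 asks how OSCARlow cells differ from OSCARmed cells at the same low reporter brightness. In P1, Cldn2 fell by 2.08 ± 0.47 on the log2 scale (SE, n = 2 and 2, 4.24-fold, edgeR QL adjusted p = 0.00759), Cdh1 fell by 1.69 ± 0.34 (3.23-fold, edgeR QL adjusted p = 0.00469) and Ocln fell by 1.08 ± 0.24 (2.11-fold, edgeR QL adjusted p = 0.00702). With Cldn4 higher, 4 of the 10 were called, 3 lower and 1 higher, where 9.44% of all genes were called lower in P1 and 14.0% higher. Cldn3 stood just outside the threshold (log2 difference -1.18 ± 0.30, edgeR QL adjusted p = 0.0123), and Cldn23, Epcam and Cldn15 had differences of -1.25 ± 0.39, -0.68 ± 0.28 and -0.63 ± 0.24. Cldn7, the claudin that pairs with EpCAM, differed by -0.20 ± 0.28, and the scaffold gene Tjp1 by 0.16 ± 0.36, neither of them called. The median of the 10 differences was -0.88, beside -0.06 over all genes. With mitochondrial genes removed before scaling, the median of all genes moved to -0.26, the share of called genes that were higher in P1 went from 59.8% to 46.9%, and 4 members were again called. With some single libraries left out, fewer of all genes were called. The count of members dropped too, and without a library of P5 more steeply than the share of all genes. It was 0 without P1 replicate 1, P4 replicate 1 or P4 replicate 2, where 5.83%, 0% and 0% of all genes were called, and 1 without P1 replicate 2, P5 replicate 1 or P5 replicate 2, where 8.15%, 16.7% and 16.8% were. Against P5, Cldn2 and Cdh1 fell by 2.15 ± 0.47 and 1.57 ± 0.34 and Cldn4 rose by 1.76 ± 0.35, so that 3 members were called (edgeR QL adjusted p from 0.00505 to 0.0078) where 19.8% of all genes were called. These calls held in 2, 4 and 6 of the 10 fits with a library left out. Without mitochondrial genes the share of called genes higher in P1 than in P5 went from 56.7% to 46.2%.

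The comparison of P2 with P1 sets OSCARhigh against OSCARlow cells, both EF1alow. In the libraries labelled P2, Cldn4, Cldn2, Cdh1 and Cldn3 rose, by 2.58 ± 0.34, 2.38 ± 0.48, 1.46 ± 0.34 and 1.41 ± 0.30 on the log2 scale (SE, n = 2 and 2, edgeR QL adjusted p = 0.000604, 0.00359, 0.0072 and 0.00478). These were 4 members higher and 0 lower, where 13.9% of all genes were called higher and 15.2% lower. DESeq2 also called 4 members and 35.3% of all genes, and 6 members and 54.4% of all genes had an unadjusted edgeR p under 0.05. The remaining tight junction genes differed less, with Cldn23 at 0.98 ± 0.40, Ocln at 0.60 ± 0.24, Cldn15 at 0.07 ± 0.24, Cldn7 at -0.34 ± 0.28 and Tjp1 at -0.41 ± 0.36, none of them called. Epcam differed by 0.30 ± 0.28. The median of the 10 was 0.79 beside 0.01 over all genes, and the latter moved to 0.16 with mitochondrial genes removed. With 1 library left out, the log2 difference ranged from 1.11 to 1.77 for Cldn3, 1.89 to 3.11 for Cldn2 and 1.29 to 1.62 for Cdh1. Cldn3 and Cldn2 lost their call in some of these fits and Cdh1 in most. The number called among all genes also changed with the library left out.

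Against P4, the libraries labelled P2 differed in Cldn4 alone among the 10. This was 1 member higher and 0 lower, where 8.02% of all genes were called higher and 6.30% lower, and 2 members and 40.6% of all genes had an unadjusted edgeR p under 0.05. Of the others, Cldn15 and Cldn7 were lower by values of -0.57 ± 0.24 and -0.54 ± 0.28 on the log2 scale, with edgeR QL adjusted p of 0.109 and 0.188. Cldn7 measured 356 and 354 CPM in P1, 233 and 328 CPM in P2, 794 and 541 CPM in P3, 365 and 450 CPM in P4, and 420 and 410 CPM in P5. Its P2 libraries were both below the other 8, a position that 15.0% of all genes held, and no other member did. Against P5, Cldn4 was again the member called, where 15.9% of all genes were called, and DESeq2 called 2 members and 23.9% of all genes.

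The libraries labelled P3 held the highest values of Cldn7, Cldn15, Ocln and Epcam. Both P3 libraries lay above the other 8 for these 4 genes, and did so for 5.84% of all genes. Cldn15, the cation pore claudin, measured 262 and 253 CPM in P1, 265 and 274 CPM in P2, 622 and 442 CPM in P3, 396 and 402 CPM in P4, and 440 and 403 CPM in P5. P1 and P2 were nearly level and lay below the other 3 populations. Epcam measured 541 and 642 CPM in P1, 670 and 784 CPM in P2, 1608 and 1242 CPM in P3, 904 and 994 CPM in P4, and 1037 and 1039 CPM in P5. The populations did not overlap in Epcam, although all cells had been gated as EpCAM+. No neighbouring pair in this order was called, however, with edgeR QL adjusted p of 0.345 or more. How many of all genes separate in this way was not counted. The P3 replicates differed by a median of 0.62 over the 10 genes, with 8 of 10 higher in replicate 1, the library with 59.2% mitochondrial counts and a TMM factor of 0.49 against 0.96. Without that library, the differences of P3 from P5 went from 0.69 to 0.36 for Cldn7, from 0.34 to 0.05 for Cldn15, from 0.41 to 0.20 for Ocln and from 0.46 to 0.24 for Epcam on the log2 scale, none of them called.

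As labelled, the comparison of P3 with P1 asks how OSCARlow cells of high and low reporter brightness differ. Cdh1 rose by 2.25 ± 0.35 on the log2 scale (SE, n = 2 and 2, 4.76-fold, edgeR QL adjusted p = 0.00242), Cldn3 by 1.46 ± 0.30 (edgeR QL adjusted p = 0.00685), Ocln by 1.39 ± 0.24 (edgeR QL adjusted p = 0.00363) and Epcam by 1.27 ± 0.28 (edgeR QL adjusted p = 0.00983). These 4 were higher and 0 were lower, where 8.02% of all genes were called higher and 7.59% lower. Cldn23 and Cldn15 stood just outside the threshold at 1.77 ± 0.40 and 1.05 ± 0.24 (edgeR QL adjusted p = 0.0104 and 0.0108), and Cldn2 and Cldn7 had differences of 1.72 ± 0.47 and 0.91 ± 0.28. The median of the 10 was 1.33 beside -0.03 over all genes. The count dropped to 0 without P1 replicate 1 or P1 replicate 2 and in a fit of these 2 populations alone, where 0%, 2.17% and 0% of all genes were called. It was 2 without P3 replicate 1, where 14.6% of all genes were called, and 2 without either library of P4 or P5, where 8.41% to 9.88% were, and Epcam was called in 0 of the 10 fits with a library left out. Against P2, P3 had less Cldn4 (above), and Cldn7 was lower in P2 by a difference of -1.25 ± 0.29 (edgeR QL adjusted p = 0.00865), so that 2 members were called where 21.0% of all genes were. The Cldn7 call held in 1 of the 10 fits with a library left out.

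**Figure D2:**
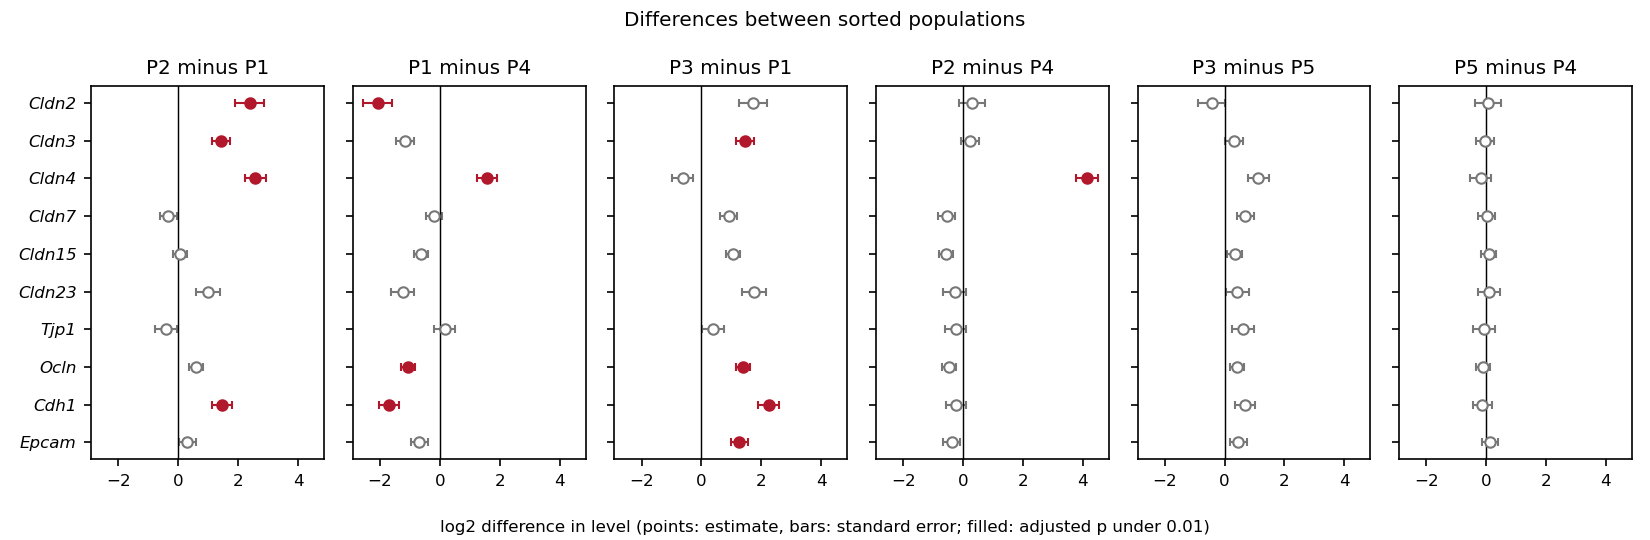
Log2 difference in level of each gene between 2 labelled populations (points, with bars of 1 standard error from the edgeR fit over 10 libraries), filled where the adjusted p was under 0.01. Called differences appear in the 3 comparisons with P1 and, for Cldn4 alone, between P2 and P4, where it is 4.15, and none appear between P3 and P5 or between P5 and P4.

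Between P3 and P5, OSCARlow and OSCARmed cells of high brightness, 0 members were called by edgeR and 0 by DESeq2, 2 members (Cldn4 and Cldn7) had an unadjusted edgeR p under 0.05, and 0% of all genes were called (1587 at an unadjusted p under 0.05, 41 by DESeq2). Cldn4 had a difference of 1.13 ± 0.36 and Cldn7 of 0.69 ± 0.28 on the log2 scale, and the median of the 10 was 0.44. Between P3 and P4, 0 members were called by edgeR and 0 by DESeq2, 2 had an unadjusted p under 0.05, and 0% of all genes were called (2080 at an unadjusted p under 0.05, 123 by DESeq2). Between P5 and P4, which differ in brightness within OSCARmed, all 10 differences lay between -0.19 and 0.13, with standard errors of 0.23 to 0.45. Here 0 members were called by edgeR, by DESeq2 or at an unadjusted p under 0.05, and 0% of all genes were called (351 at an unadjusted p under 0.05, 27 by DESeq2).

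Whether brightness went with the same change in OSCARlow as in OSCARmed cells was tested as the difference of the 2 effects, P3 minus P1 less P5 minus P4. By edgeR 0 members were called, where 0.817% of all genes were, while 7 members and 33.9% of all genes had an unadjusted p under 0.05 and DESeq2 called 5 members and 17.7% of all genes. Cdh1 came nearest, with a difference of effects of 2.37 ± 0.48 on the log2 scale (edgeR QL adjusted p = 0.0146), then Ocln with 1.49 ± 0.34 (edgeR QL adjusted p = 0.0201).

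Cldn15 (levels above), Cldn23 and Tjp1 were called in none of the pairwise comparisons. Cldn23 measured 6.59 and 11.2 CPM in P1, 15.8 and 19.1 CPM in P2, 40.2 and 21.5 CPM in P3, 24.4 and 17.9 CPM in P4, and 26.3 and 18.7 CPM in P5. P1 was lowest and P3 replicate 1 highest. Tjp1 measured 164 and 148 CPM in P1, 112 and 123 CPM in P2, 293 and 118 CPM in P3, 156 and 123 CPM in P4, and 140 and 127 CPM in P5. Its 2 P3 libraries spanned nearly the whole range, a replicate difference of 1.31 on the log2 scale. The Tjp1 difference between P3 and P1, 0.39 ± 0.36 on the log2 scale, turned to -0.39 without P3 replicate 1.

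When the 5 populations were ordered by level for each gene, 2 of the 40 neighbouring pairs were called, Cldn4 in P2 over P1 and Cdh1 in P2 over P1. Of all genes, 13.9% were called higher in P2 than in P1, and 0% were called between P5 and P4, P3 and P5 or P3 and P4. Shares for the other pairs of populations stand with their comparisons above. The order was P3, P4, P5, P2, P1 for Cdh1 and Ocln, and P3, P5, P4, P2, P1 for Cldn15, Cldn23 and Epcam. In these 5 genes no neighbours were called other than the 1 pair of Cdh1. For Cldn2 the order was P2, P5, P4, P3, P1, for Cldn3 P3, P2, P4, P5, P1, for Cldn4 P2, P1, P3, P4, P5, for Cldn7 P3, P5, P4, P1, P2 and for Tjp1 P3, P1, P4, P5, P2.

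Levels can be set between genes after division by exon length. The median over the 10 libraries was 465 CPM per kb for Epcam, 208 for Cldn3, 199 for Cldn7, 188 for Cldn15 and 156 for Cdh1, all in CPM per kb. A second tier held Cldn2 with 41.9, Ocln with 29.9, Tjp1 with 18.1, Cldn4 with 13.2 and Cldn23 with 10.2 CPM per kb. In the libraries labelled P2, Cldn4 left this tier, with 93.1 and 159 CPM per kb.

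Among the 6 claudins the make-up of each library differed in the same places. Cldn4 made up 15.3% and 19.6% of the claudin counts per length in P2, 4.00% and 5.63% of those of P1, and from 0.857% to 2.09% of the remaining 6 libraries. Cldn7 and Cldn15 had their lowest shares in P2, where Cldn7 made up 19.7% and 20.7% against at least 30.3% elsewhere and Cldn15 20.6% and 15.9% against 25.8% to 30.4%. In P1, Cldn3 had its lowest shares, 18.2% and 24.9%, and Cldn7 its highest, 39.4% in replicate 2 and more in replicate 1. These shares do not depend on the scaling between libraries, and they describe unequal change within a library.

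**Figure D3:**
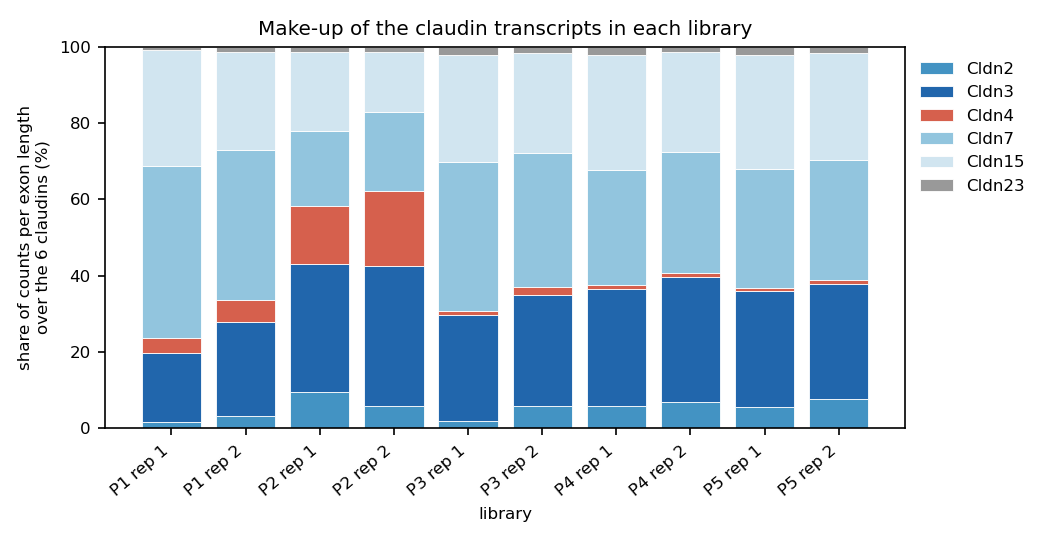
Share of each of the 6 claudins (% of their summed counts per exon length) in the 10 libraries, stacked from 0 to 100%. Cldn4 takes 15.3% and 19.6% of the bars of P2, 4.00% and 5.63% of those of P1 and at most 2.09% of the rest.

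Ratios of paired genes within a library showed the same positions. Of the pore claudins, Cldn2 relative to Cldn15 per length was 0.46 and 0.36 in P2 and 0.05 and 0.12 in P1, with 0.07 and 0.22 for P3 and 0.18 to 0.27 for P4 and P5. P2 had the highest ratios, and P1 overlapped with P3. The ratio of Cdh1 to Epcam was 0.18 and 0.18 in P1 and 0.28 to 0.42 in the other 8 libraries, so E-cadherin transcripts were lower relative to Epcam in P1. The ratio of Ocln to Tjp1 was 0.62 and 0.83 in P1 and 1.13 to 2.17 elsewhere. Cdh1 relative to Cdh17, the liver-intestine cadherin, was 0.39 and 0.52 in P1 and 0.66 to 1.28 elsewhere. In these last 3 ratios the P1 libraries did not overlap any other library, and the ratios were not tested.

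**Figure D4:**
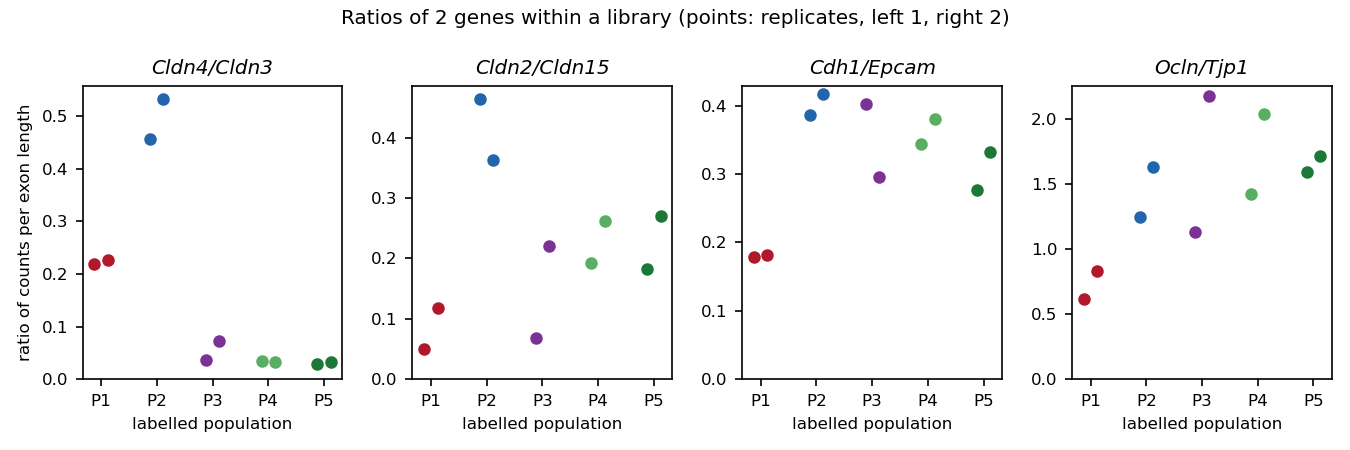
Ratio of counts per exon length of 2 genes within a library (linear axes from 0), by labelled population, with replicate 1 at the left and replicate 2 at the right. Cldn4 to Cldn3 is 0.46 and 0.53 in P2, while Cdh1 to Epcam is 0.18 in both P1 libraries and 0.28 to 0.42 in the rest.

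Over the 10 libraries, the log2 levels of the members were alike in most pairs, with a median Pearson r of 0.57 over 45 pairs. These are descriptions over libraries that share 5 populations and their scaling. Cldn15 and Epcam were the most alike (r = 0.96). Cldn4 was like none, with r between -0.66 and 0.10, and without it the median over 36 pairs was 0.70. Tjp1 and Cldn2 had r = -0.54. Among all genes tested, Cdh1 was most like Dsg2 (r = 0.99), which encodes the desmosomal cadherin desmoglein 2, and next Ncstn, a subunit of gamma-secretase. Cldn15 was most like the receptor gene Erbb3 and the cathepsin gene Ctsb (r = 0.99 each), Ocln like L1cam and the sheddase gene Adam10 (r = 0.98 each), and Epcam like Rdh11 and the sterol enzyme gene Dhcr7 (r = 0.98 each). Cldn4 was most like Orai3 (r = 0.97) and S100a6 (r = 0.96), both genes of calcium-handling or calcium-binding proteins. For the others the likest genes were Yrdc and Sh3bp4 for Cldn2, Kremen1 and Ddost for Cldn3, Gm15429 and Cmtm6 for Cldn7, Pdgfrb and NR_045500 for Cldn23, and Gm15118 and Minpp1 for Tjp1, with r from 0.94 to 0.98.

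**Figure D5:**
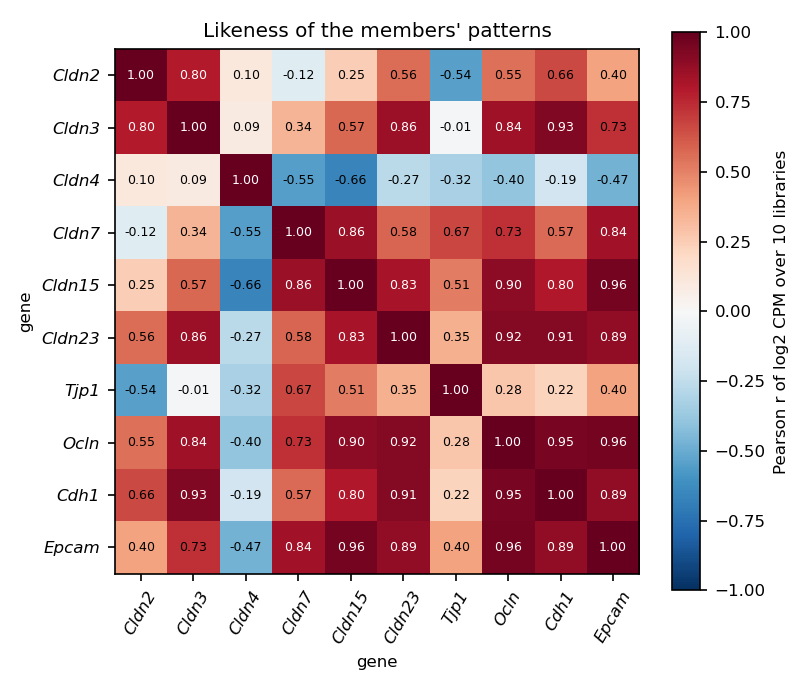
Pearson r of log2 CPM over the 10 libraries for each pair of the 10 genes (colour and printed value, from -1 to 1). The row of Cldn4 runs from -0.66 to 0.10 with the other 9 genes, while Cldn15 and Epcam reach 0.96.

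The wider junction lists held 81 further genes, of which 54 passed the filter and 23 were called over the 5 populations, where 36.3% of all genes were. In P1 against P4, 12 of the 54 were called higher and 10 lower, where 14.0% of all genes were called higher and 9.44% lower. In P2 against P1, 12 were higher and 14 lower, beside shares of all genes of 13.9% and 15.2%. In P3 against P1, 12 were higher and 6 lower, beside shares of 8.02% and 7.59%. In P2 against P4, 1 was higher and 2 lower, beside shares of 8.02% and 6.30%, and 0 were called between P3 and P5 or between P5 and P4. Of 3 other claudins tested, Cldn12 was lower in P1 than in P4 by a difference of -1.17 ± 0.22 (edgeR QL adjusted p = 0.00347), as Cldn2 was.

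Of the other tight junction genes, 8 of 22 were called higher in P1 than in P4 and 3 lower. Beside this count and those of the adherens junction, desmosome and gap junction lists stand the 14.0% of all genes called higher and 9.44% called lower in P1 than in P4. The scaffold gene Magi3 rose by 1.99 ± 0.24 on the log2 scale (edgeR QL adjusted p = 0.000908) and the polarity gene Crb3 by 1.57 ± 0.17 (edgeR QL adjusted p = 0.000899), opposite in direction to Ocln. Cgnl1, which encodes paracingulin, was like Cldn4 highest in P2, with 35.6 and 27.1 CPM in P2 and at most 6.34 CPM in any other library. Cgnl1 rose by 3.06 ± 0.52 in P2 against P4 (edgeR QL adjusted p = 0.00318). Of 12 adherens junction genes, 3 were called higher in P1 than in P4 and 1 lower. Ctnna1, which encodes alpha-catenin and links E-cadherin to actin, rose by 1.70 ± 0.28 (edgeR QL adjusted p = 0.00225) where Cdh1 fell. The nectin gene Pvrl2 fell by 1.20 ± 0.26 in P1 (edgeR QL adjusted p = 0.00634), and another nectin gene, Pvrl3, was lower in P2 than in P4 by a difference of -2.29 ± 0.22 (edgeR QL adjusted p = 0.000473).

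Of 10 desmosome genes, 1 was called higher and 1 lower in P1 than in P4, the plakophilins Pkp3 at 1.34 ± 0.24 and Pkp1 at -1.79 ± 0.34 (edgeR QL adjusted p = 0.00281 and 0.00382). Among 4 relatives and proteases of EpCAM, Prss8, which encodes prostasin, was lower in P1 than in P4 by -1.46 ± 0.26 (edgeR QL adjusted p = 0.00277), and St14, the gene of its partner protease matriptase, by -0.77 ± 0.24, which was not called. All 3 gap junction genes tested were called lower in P1 than in P4, among them Gjb1, the gene of a connexin, at -1.63 ± 0.31 (edgeR QL adjusted p = 0.00377). In P2, Gjb1 differed from P4 by -0.10 ± 0.30, which was not called.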

How the data were processed

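Small intestinal crypt cells were sorted into 5 populations of 2 libraries each, and poly-A RNA was sequenced on a NextSeq 500 without strand information. The authors deposited raw read counts per gene: per their methods and processing notes, FastQC 0.11.5, TopHat 2.1.0 with Bowtie to mm9, and HTSeq 0.11.2 on exons, regardless of strand, with multiply aligned reads not counted, so that reads shared between near-identical genes are lost. Groups and replicate numbers came from the deposited labels.

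From these counts, 183 rRNA gene names were removed, and the row without a gene name (at most 0.000596% of counts) was left out. Genes were filtered with filterByExpr, scaled by TMM and tested with edgeR 4.0.16 (R 4.3.3, quasi-likelihood, 5 residual degrees of freedom, Benjamini-Hochberg, adjusted p under 0.01). DESeq2 1.42.0 was an alternative, beside other scalings, filters, thresholds, library sets and a replicate block. SE values were derived from the F statistics. Pearson r used log2 CPM with a prior count of 2. Exon lengths and positions came from GENCODE on NCBIM37, which held 33643 of 35006 names. Scripts were tested on simulated data. The 10 genes, the lists and the motifs were chosen with earlier results of these data known. Named genes were all members, up to 3 called genes with the largest F per wider list, and the 2 likest genes per member. Cdh17 and the genes named in the closing observations were chosen after their values were seen, and a gene that the rule names but that is withheld is not reported here.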

Additional observations from a re-analysis of the deposited data

How the results depend on the processing

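The Cldn4 differences between P2 and each of P1 and P4 kept their direction and call under every alternative run, and so did the counts of 0 between P3 and P5 and between P5 and P4. Counts that moved by over 1.5 times are as follows. Apart from neighbouring pairs and fits with 1 library left out, each is given with the share of all genes called by the same fit. DESeq2's test called 7 members between P1 and P4 (32.0% of all genes), 8 between P3 and P1 (26.9%), 5 in the difference of EF1a effects (17.7%), 8 over the 5 populations (47.4%) and 4 neighbouring pairs. Without a filter on low counts, 4 were called in the difference of EF1a effects (10.5%), 6 over the 5 populations (36.1%) and 4 neighbouring pairs. At an adjusted p under 0.05 the counts were 8 between P3 and P1 (34.0%), 3 in the difference of effects (17.3%), 9 over the 5 populations (57.9%) and 4 neighbouring pairs. With mitochondrial genes removed, 5 were called over the 5 populations (35.3%), and with only the populations compared in the fit, 0 between P3 and P1 (0%). Leaving out 1 library moved the counts between P2 and P1, between P1 and P4, between P3 and P1, over the 5 populations and of neighbouring pairs. The number called among all genes moved in these fits as well. A group left with 1 library was assumed to vary like the others. The cause of these changes was not tested.

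Same-numbered libraries deviated from their population means with correlations of -0.0597 to 0.554 (median 0.255) over 10 pairs of populations. Of these 9 were over 0.1 and 1, P2 with P3, was not, so the numbers were not treated as pairs. Over all 10 libraries with the replicate number as a block, the counts were 4 between P2 and P1, 1 between P2 and P4, 5 between P1 and P4, 5 between P3 and P1, 4 over the 5 populations, 3 neighbouring pairs and 0 in the others. With this block, the share of all genes called was 41.7% over the 5 populations. It was 33.0% for P2 against P1, 28.3% for P1 against P4 and 19.0% for P3 against P1. For P2 against P4 it was 17.4%, and for the difference of EF1a effects 4.57%. P3 against P5 had 0.0292% and P5 against P4 0.0073%.

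Signs that turned belonged to differences that were not called. Tjp1 between P1 and P4 was -0.0478 with mitochondrial genes removed and ranged from -0.00813 to 0.33 with 1 library left out. Cldn7 between P5 and P4 was -0.00197 without a filter and -0.0161 without mitochondrial genes. With 1 library left out, the P5 to P4 differences ranged from -0.17 to 0.33 for Cldn2, -0.19 to 0.14 for Cldn3, -0.11 to 0.19 for Cldn7, -0.17 to 0.33 for Cldn23, -0.22 to 0.12 for Tjp1 and -0.26 to 0.0332 for Cdh1. The P3 to P5 differences ranged from -1.18 to 0.0256 for Cldn2, -0.0872 to 0.83 for Cldn23 and -0.20 to 1.13 for Tjp1. Tjp1 ranged from -0.39 to 0.94 between P3 and P1 and from -0.32 to 1.01 in the difference of EF1a effects, and Cldn3 from -0.10 to 0.45 between P2 and P4. Of all values recomputed, 1289 kept direction and side of the threshold, 68 lost a call, 43 gained one and 20 turned.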

Other observations

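The 54 wider junction genes that were tested can also be divided by where their proteins sit. This division was made after the values had been seen, so it is a description without a test. Of all genes tested, 14.0% were called higher and 9.44% lower in P1 than in P4, 13.9% higher and 15.2% lower in P2 than in P1, and 19.8% in either direction between P1 and P5. The genes named here were also chosen after their values had been seen. In P1 against P4, 8 of 26 genes of membrane-spanning or membrane-anchored proteins were called lower and 1, Crb3, was called higher, with a median log2 difference of -1.01. Of 28 genes of cytoplasmic proteins, 11 were called higher and 2, Csda and Pkp1, were called lower, with a median of 0.82. Among the cytoplasmic genes, Mpp5 rose by 2.61 ± 0.43, Pard6b by 2.31 ± 0.41 and Ctnnb1 by 1.56 ± 0.29 on the log2 scale (edgeR QL adjusted p = 0.0021, 0.00276 and 0.00326). Mpp5 and Pard6b encode polarity proteins, and Ctnnb1 encodes beta-catenin. Among the membrane genes, Gjb2, which encodes a connexin, fell by 2.14 ± 0.48 and Cxadr, a cell adhesion receptor gene, by 1.13 ± 0.27 (edgeR QL adjusted p = 0.00733 and 0.00981).

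Against P5, 6 of 26 membrane genes were called lower and 1 higher, and 11 of 28 cytoplasmic genes higher and 2 lower. In P2 against P1, 10 membrane genes were called higher and 3 lower, while 2 cytoplasmic genes were higher and 11 lower. All of these comparisons rest on the same 2 P1 libraries. Of the 10 junction genes above, Tjp1 encodes a cytoplasmic protein and the other 9 span the membrane. These 9 did not all move alike in P1 against P4. Cldn2, Cdh1 and Ocln were called lower, Cldn4 was called higher at 1.57 ± 0.34, and the rest were not called, with Cldn7 at -0.20 ± 0.28.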
